A study of Mus musculus with 2 samples.

Results

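The 41 genes described here belong to the interferon response and to antigen presentation. They were taken by symbol from the 32285 genes of the deposited gene list, and all 41 were found and had at least 50 unique molecular identifiers (UMIs) in each library. Single-cell RNA-Seq had been done on Tomato-positive epithelial cells sorted from mouse small intestine. WT mice carried Neurog3Cre and Rosa26tdtomato, so that cells descended from Neurog3-expressing progenitors stay red. NFKO mice carried the same 2 alleles together with FoxO1 f/f, which is meant to remove Foxo1 from the lineage-labelled cells. Each group was 1 library made from the pooled small intestines of 4 to 5 mice aged 4 to 6 weeks, and Neurog3Cre marks only the descendants of Neurog3-positive cells, so unlabelled epithelium was not sampled.

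Interferons are cytokines that signal from receptors at the cell surface to transcription factors in the nucleus. Targets of type I and type III interferons carry the interferon-stimulated response element (ISRE), which IRF9 helps to bind, while type II interferon acts at the gamma-activated site (GAS). Their targets include sensors of viral RNA and DNA, enzymes that block viral replication, and the machinery that cuts proteins into peptides, carries these into the endoplasmic reticulum and loads them onto MHC molecules. MHC class I is carried by nearly all cells, whereas class II is best known from professional antigen-presenting cells and is also made by intestinal epithelium.

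The cells that passed the filters numbered 3003 in WT and 5292 in the NFKO-labelled library, with 78424392 and 111522270 UMIs. Levels are in CPM, which is how many of every 1000000 UMIs summed over a class fell on the gene, and where a pair of levels is given WT comes first. Because UMIs count 3′ ends, CPM needs no scaling by transcript length. With 1 library per group there was no test, and the 95% intervals in parentheses cover counting error only. Ratios divide the NFKO level by the WT level, and a gene was called in a class when the ratio was at least 2 or at most 0.5 and the class held at least 50 of its UMIs over both libraries. The targeted gene Foxo1 stood at 11.5 and 12.4 CPM, with a ratio of 1.07 (0.987 to 1.17), so the counts did not show its loss. The study itself reported a significant reduction of FoxO1 expression in sorted Tomato-positive cells of NFKO mice. Counts from the 3′ end need not fall when an internal exon is deleted, and whether this applies here was not tested. The second library is therefore called the library labelled NFKO throughout. The libraries also differed in sex, with 2424 male-typed and 6 female-typed cells in WT against 357 and 4357 in the library labelled NFKO, and they shared 4 barcodes among kept cells.

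Cells were clustered without the 41 genes and without 105 other genes of the pathway, so that neither set shaped the classes. The classes were goblet-like (836 and 1526 cells), enteroendocrine-like (991 and 1863), Paneth-like (264 and 284), enterocyte-like (268 and 380), tuft-like (87 and 140), stem-like (294 and 186, led by Olfm4 and replication genes) and cycling-like (69 and 179). The stem-like cluster passed with 8 stem markers and also with 8 cycling markers, so its name does not set it apart from dividing cells. A cluster of 15 and 4 cells carried lymphocyte markers and is used only for comparison, and 179 and 730 cells stayed unnamed. The unnamed include a cluster of 48 and 153 cells that passed with 6 enteroendocrine markers but was left unnamed for its low depth. Markers of T cells, B cells and myeloid cells were low in the epithelial classes. Cd3e, for example, was at 0 UMIs in goblet-like and stem-like cells of both libraries, and Ptprc, which tuft cells also express, was at or below 0.561 CPM outside the tuft-like class and the lymphocyte cluster.

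The promoters of the members were searched for the binding motifs of the interferon pathway. RefSeq promoters on GRCm38.p6 were matched for 31 of the 41 members, and the 250 bases before the start site were searched on both strands for the ISRE core GAAANNGAAA and for the GAS core TTCNNNGAA. Matches of the motifs can share bases. An ISRE match was found for 11 of the 31 members (35.5%), beside 3.46% of 27025 genes, and a GAS match for 7 (22.6%), beside 8.13%. The following 30-base stretches hold the matches in capitals, 5′ to 3′ on the strand of the gene, and are shown because these genes passed the 2-fold threshold in at least 1 class. They lie at chr4:156200871-156200900 (minus strand) for Isg15, chr19:34640785-34640814 (plus) for Ifit1, chr12:26456553-26456582 (minus) for Rsad2, chr8:61928024-61928053 (plus) for Ddx60, chr3:142620594-142620623 (plus) for Gbp2 and chr8:120736186-120736215 (plus) for Irf8. A match describes the letters in this window and is not evidence of binding.
Isg15: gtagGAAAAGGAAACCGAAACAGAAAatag
Ifit1: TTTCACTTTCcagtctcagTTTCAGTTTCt
Rsad2: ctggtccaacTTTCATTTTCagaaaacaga
Ddx60: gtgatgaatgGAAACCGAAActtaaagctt
Gbp2: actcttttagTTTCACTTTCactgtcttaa
Irf8: tTTCTCGGAAagagagcgcTTCAGAGAAgg

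The Isg15 promoter held 3 overlapping ISRE matches, which begin 78 to 66 bases before the start site. The Ifit1 promoter held 2, beginning 104 and 85 bases before it. In Ifit1, Rsad2 and Gbp2 the core reads on the opposite strand. Ddx60 held a second match outside the printed stretch, and Irf8 held 2 GAS matches and no ISRE match. Promoters of Zbp1, Oas2, Ifi27l2b, Ido1, H2-Q1, Tap2, H2-Ab1, Cd74, Ciita and Nlrc5 were not analysed here.

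The levels by class were compared first. Goblet-like cells led in Ifi27l2b, Ddx60, Zbp1, Ido1 and Gbp2 in both libraries, enterocyte-like cells in the immunoproteasome, peptide transporters, H2-T3 and H2-Q1, tuft-like cells in Irf7, Irf9, Stat2 and the Oas genes, and stem-like cells in MHC class II and Ifitm3. By count, 12 of the 41 members had their highest level in enterocyte-like cells in both libraries, beside 9.63% of all genes tested. In tuft-like cells it was 8 members, beside 12.5%, in goblet-like cells 5, beside 3.92%, and in stem-like cells 5, beside 8.25%. Enteroendocrine-like cells led for 1 member, Rsad2, beside 30.0% of all genes. For Paneth-like and cycling-like cells the count was 0, beside 0.824% and 7.04%. The other 10 members led in different classes in the 2 libraries. Enterocyte-like cells were not alike in the libraries. Their enterocyte markers summed to 3840 CPM in WT and 25746 CPM where labelled NFKO, and their goblet markers to 27387 and 14876 CPM. The part of this in the order of the classes was not tested.

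**Figure D1:**
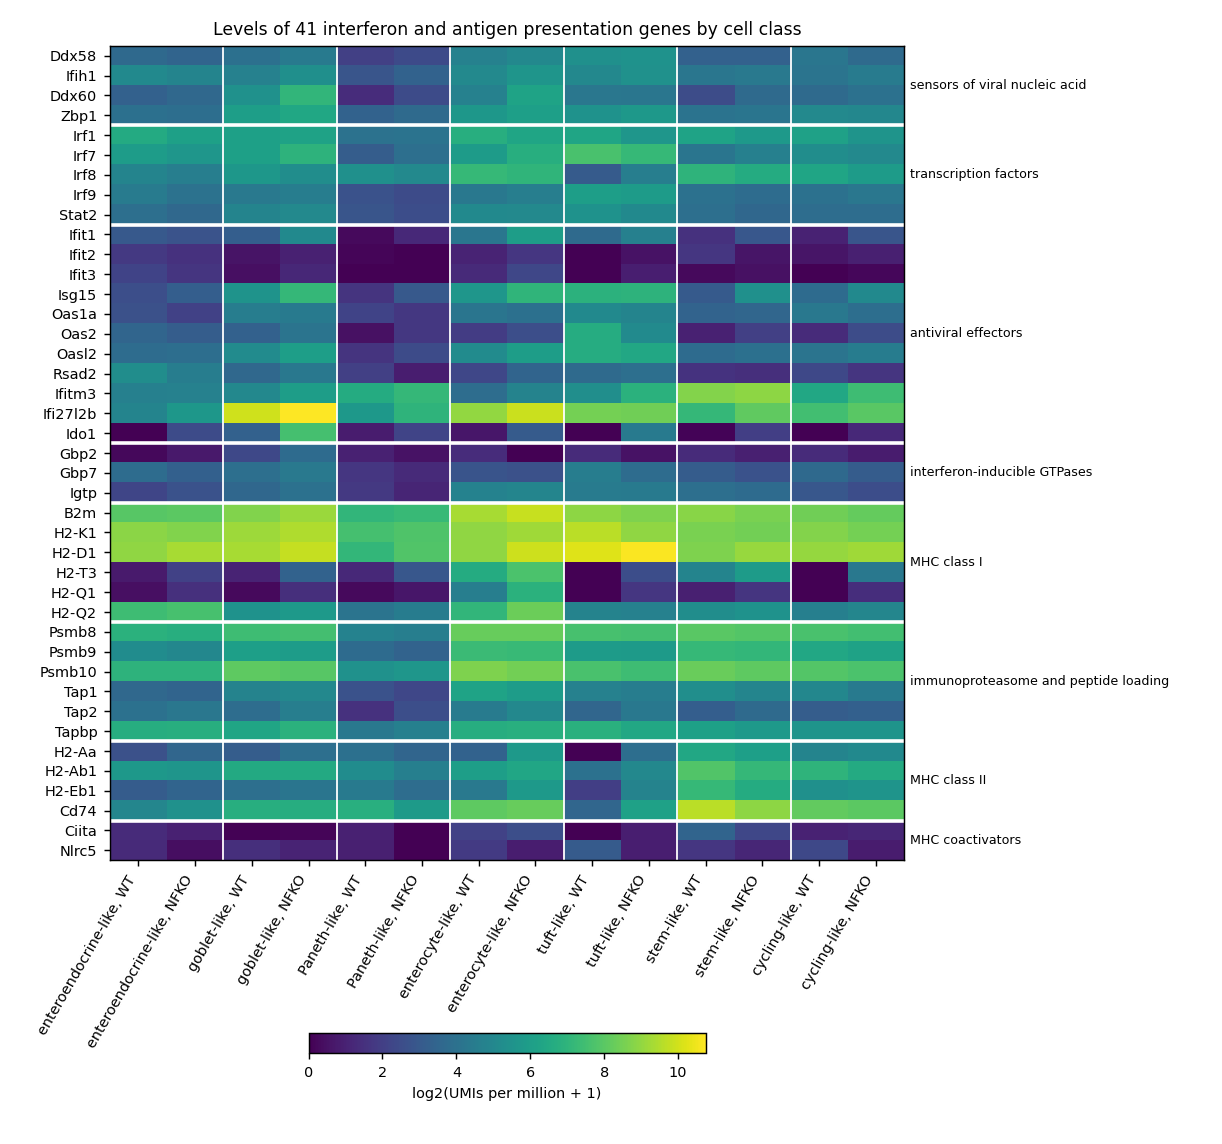
Levels of the 41 genes (rows, grouped by role) as log2 of UMIs per 1000000 plus 1, in 7 cell classes, WT beside the library labelled NFKO in each pair of columns. Ifi27l2b is brightest in goblet-like cells, Cd74 and Ifitm3 in stem-like cells, H2-T3 and H2-Q1 in enterocyte-like cells, and Paneth-like columns are dark for most genes.

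Among antiviral effectors, Ifi27l2b, an interferon-inducible gene of the Ifi27 family, had the highest level over all kept cells. It stood at 989 CPM (975 to 1003) in WT goblet-like cells and at 1717 CPM (1702 to 1732) in goblet-like cells labelled NFKO. Its median over the other classes was 160 and 267 CPM, so goblet-like cells exceeded it 6.19-fold and 6.42-fold. With every cell thinned to 2000 UMIs, a UMI of Ifi27l2b was seen in 71.1% (67.9 to 74.2) of WT goblet-like cells and in 84.5% (82.6 to 86.3) of those labelled NFKO, against 4.88% and 9.92% of enteroendocrine-like cells. Without thinning these shares were 97.1%, 98.7%, 19.3% and 41.5%, at median depths of 24212 and 21730 UMIs in goblet-like cells and of 12022 and 15283 in enteroendocrine-like cells. Enterocyte-like cells came next, at 517 and 934 CPM.

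Ido1, the enzyme that opens the kynurenine path of tryptophan breakdown, was also highest in goblet-like cells, at 9.07 CPM (7.76 to 10.5) in WT against 188 CPM (184 to 193) in the library labelled NFKO. In the other classes it ranged from 0 to 0.767 CPM in WT and from 1.36 to 20.4 CPM where labelled NFKO. The 20.4 CPM were those of tuft-like cells, where 3 cells held 87.0% of 46 UMIs, and all 16 UMIs of WT Paneth-like cells came from 1 cell. Zg16, an abundant mucus granule gene that marks RNA from goblet cells, ranged from 55.2 to 8001 CPM in those other WT classes and from 729 to 5409 CPM in those labelled NFKO, and its part in the Ido1 counts there was not tested. Ddx60, a helicase that assists RIG-I in sensing viral RNA, had 42.4 CPM in WT goblet-like, 25.4 in enterocyte-like and 18.1 in tuft-like cells, where the intervals of the last 2 overlapped, and 1.58 CPM in Paneth-like cells. Zbp1, a sensor of nucleic acid in the Z form, had 64.7 and 83.7 CPM in goblet-like cells.

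Ifitm3, a membrane protein that blocks the entry of viruses, was highest in stem-like cells, at 431 CPM (421 to 442) and 481 CPM (468 to 496). The next class was Paneth-like in WT with 96.1 CPM and cycling-like in the other library with 168 CPM. Enterocyte-like cells had 13.3 and 27.0 CPM. Oas2, which makes the oligoadenylates that activate RNase L, was highest in tuft-like cells, at 99.6 CPM (77.0 to 127) and 34.2 CPM (27.0 to 42.7), against medians of 2.16 and 4.86 CPM over the other classes. Irf7, the factor that amplifies the type I response, had 204 and 147 CPM in tuft-like cells. Irf9, a factor that binds the ISRE, had 63.4 and 58.5 CPM there, and the sensor Ddx58 (RIG-I) 40.7 and 43.5 CPM.

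Rsad2, which makes an antiviral nucleotide, was the member led by enteroendocrine-like cells. It had 37.9 CPM (34.4 to 41.7) and 22.4 CPM (20.7 to 24.3). These UMIs sat in a minority of the cells, 144 out of 991 in WT and 256 out of 1863 in the NFKO-labelled library. Ifit2 and Ifit3, relatives of Ifit1, stayed at or under 3.82 CPM in every epithelial class.

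Of the MHC class I genes, B2m, the shared light chain, and the heavy chains H2-K1, H2-D1 and H2-Q2 were found in every named epithelial class. H2-D1, the member with the highest level of this group over all kept cells, was highest in tuft-like cells, with 1187 and 1650.3 CPM, and lowest in Paneth-like cells, with 138 and 229.6 CPM. B2m was highest in enterocyte-like cells at 645 and 914 CPM. Other heavy chains were less evenly spread. H2-T3, which encodes the thymus leukaemia antigen, a ligand of CD8αα known from intestinal epithelium, had 98.2 CPM (91.0 to 106) in WT enterocyte-like cells and 207 CPM (197 to 216) in those labelled NFKO. Stem-like cells followed with 27.7 and 58.1 CPM, and goblet-like cells had 1.11 and 9.48 CPM. H2-Q1 had 23.3 and 117 CPM in enterocyte-like cells and at most 0.942 and 2.22 CPM in the other epithelial classes. H2-Q2 was high in enteroendocrine-like cells, with 167 and 196 CPM, and in enterocyte-like cells, with 133 and 319 CPM, and at or under 53.7 CPM elsewhere. Genes of the H2 family are near-identical copies in places, so reads could be split among them, and their values are uncertain for that reason. Male-typed cells labelled NFKO also stood apart in these genes, with 2.04 to 5.06 times the H2-D1 level of male-typed WT cells over 6 classes and 0.207 to 1.07 times the H2-K1 level, so the H2 levels of that library mix cells that differ in them. Its part in the H2 ratios was not tested.

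Psmb8, Psmb9 and Psmb10, the catalytic subunits of the immunoproteasome, and Tap1, which pumps peptides into the endoplasmic reticulum, were highest in enterocyte-like and lowest in Paneth-like cells in both libraries. Psmb10 had 402 and 348 CPM in enterocyte-like cells, 311 and 269.7 CPM in stem-like cells, 121 and 122 CPM in enteroendocrine-like cells, and 41.9 and 49.2 CPM in Paneth-like cells. The 6 genes of the group summed to 1059 and 1002 CPM in enterocyte-like cells and to 107 and 116 CPM in Paneth-like cells. Paneth markers, mainly defensins, took 552197 CPM of WT Paneth-like cells and 498486 CPM of those labelled NFKO, and the part of this share in the low levels there was not tested.

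MHC class II genes were highest in stem-like cells. Cd74, the invariant chain that guides class II molecules to their compartment, had 789.9 CPM (776 to 804) in WT stem-like cells and 489.6 CPM (476 to 504) in those labelled NFKO. Cycling-like cells had 282 and 258 CPM, enterocyte-like cells 269.5 and 304 CPM, goblet-like cells 107 and 103 CPM, and enteroendocrine-like cells 29.5 and 41.7 CPM. H2-Ab1, H2-Eb1 and H2-Aa, the chains of the class II molecules, were also highest in stem-like cells in both libraries, at 223 and 142, 147 and 95.7, and 85.6 and 65.1 CPM. Ciita, the master coactivator of class II genes, was at 10.0 CPM in WT stem-like cells and at or under 3.37 CPM in the other named epithelial classes of WT, whereas in the library labelled NFKO enterocyte-like cells, with 5.02 CPM (3.62 to 6.78), overlapped stem-like cells, with 3.95 CPM (2.80 to 5.42). In the WT order of Cd74, cycling-like and enterocyte-like cells overlapped in their intervals, as did Paneth-like and goblet-like cells.

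The lymphocyte cluster held 2005 and 3121 CPM of Cd74, above every epithelial class. Lymphocyte, B cell and myeloid marker lists therefore stand beside the stem-like values. In stem-like cells the 11 lymphocyte markers summed to 0 and 0.312 CPM, with all 11 at 0 UMIs in WT against 8 where labelled NFKO. The 10 myeloid markers summed to 0.942 and 0.416 CPM with 7 at 0 UMIs in each, and the 6 B cell and plasma cell markers to 5.45 and 4.47 CPM with 3 and 4 at 0. When the stem-like cells with a UMI of these lists (Lyz2 not counted) were left out, Cd74 was 774 CPM in 217 WT cells and 499 CPM in 146 cells labelled NFKO. At 2000 UMIs per cell a Cd74 UMI was found in 74.8% (69.5 to 79.7) of WT stem-like cells and in 43.8% (36.5 to 51.3) of those labelled NFKO, against 5.39% and 5.76% of enteroendocrine-like cells. Unthinned, the shares were 99.3%, 69.4%, 17.6% and 20.8%, at median depths of 47551 and 53363 UMIs in stem-like cells.

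**Figure D2:**
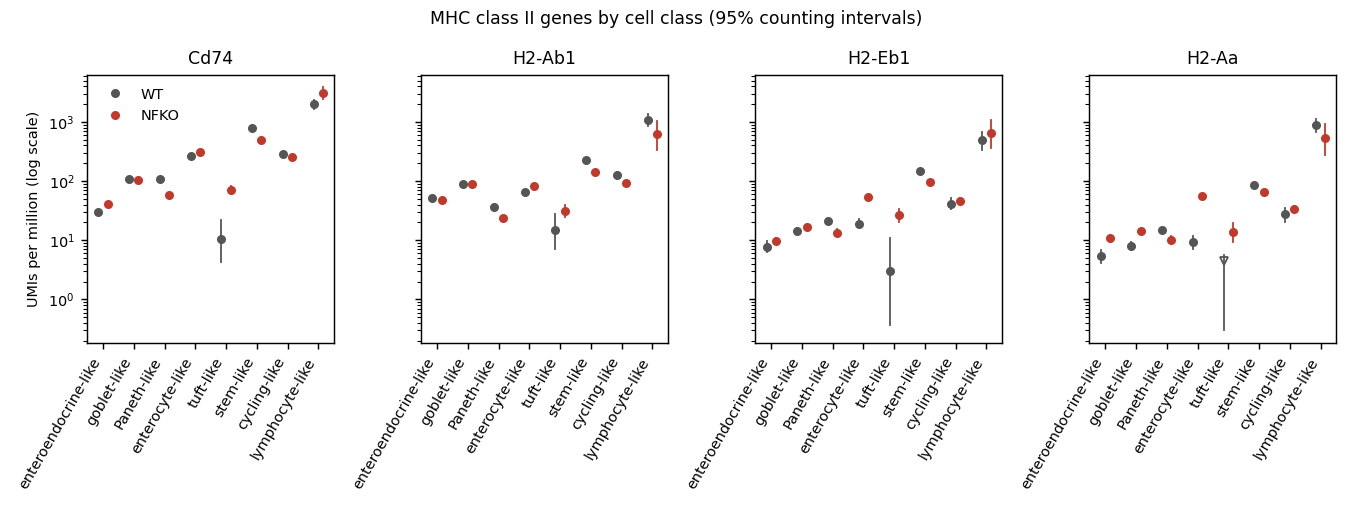
Levels of 4 MHC class II genes in UMIs per 1000000 (log scale) in each class, WT in grey and the library labelled NFKO in red, with 95% counting intervals; an open triangle marks the limit of 3 UMIs where none was counted. Stem-like cells are the highest epithelial class in every panel, and the lymphocyte-like cluster of 19 cells lies above them.

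The libraries were then compared within each class. In goblet-like cells 8 of the 38 members that passed the minimum were at least 2-fold higher, beside 4.01% of 10946 genes, and 0 were at least 2-fold lower, beside 1.88%. The median log2 ratio of the members was 0.45, against -0.03 over all genes tested. In enterocyte-like cells 11 of 37 were higher, beside 4.94% of 9542 genes, and 0 lower, beside 1.79%, with medians of 0.56 and -0.01. In enteroendocrine-like cells 3 of 38 were higher, beside 2.70%, and 0 lower, beside 2.03%, with medians of -0.10 (-0.09 with Ido1, which had 0 UMIs in WT, at its bound) and -0.02. Whether the ratios differ between classes was not tested.

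**Figure D3:**
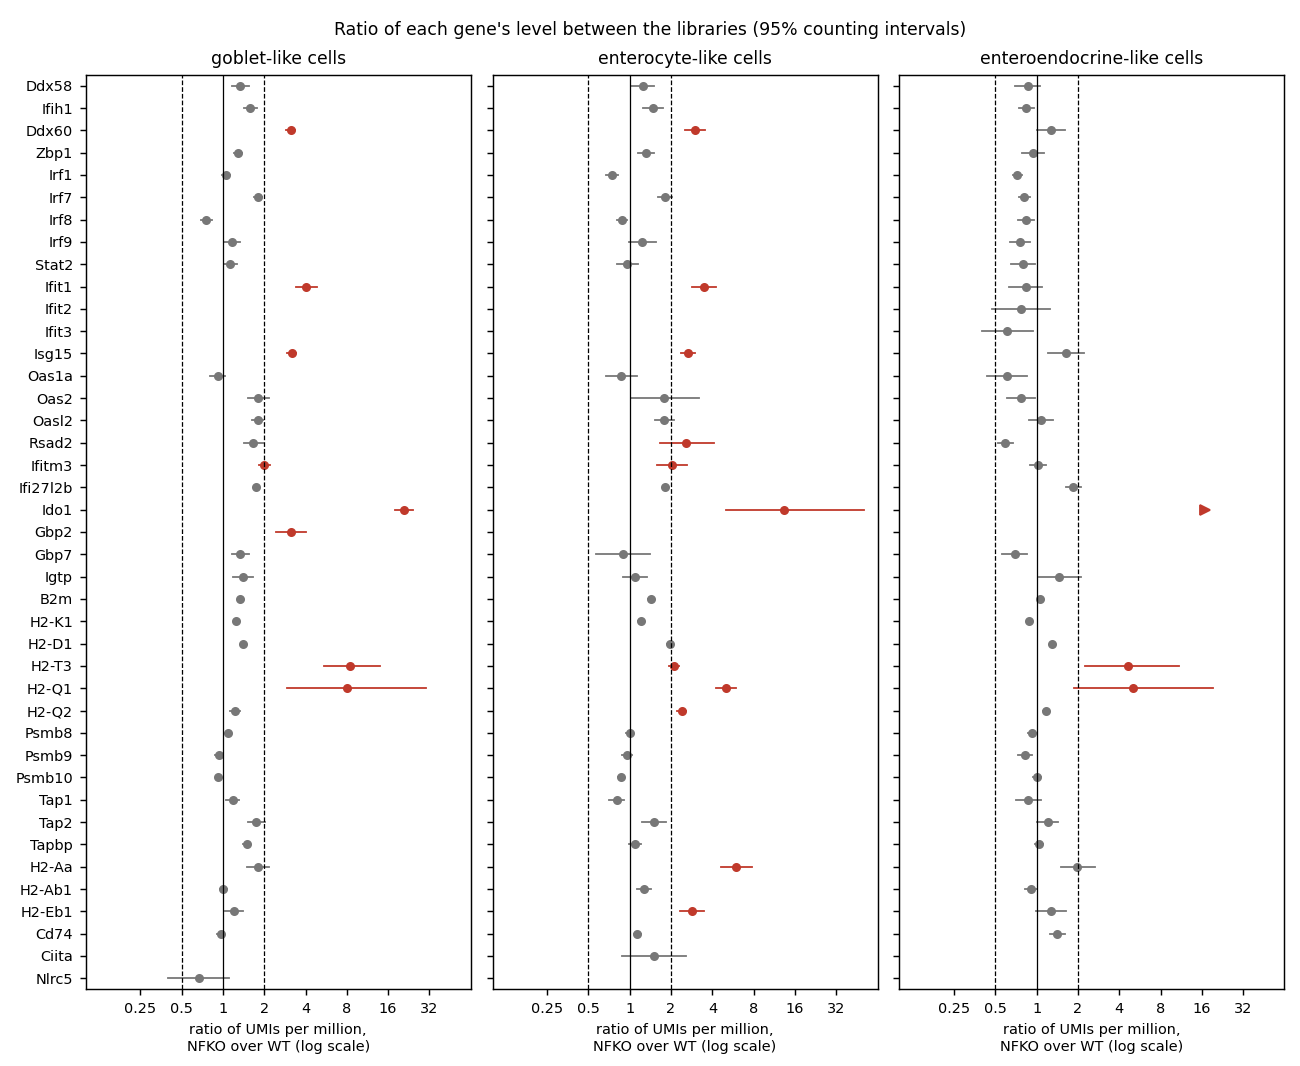
Ratio of each gene's level, NFKO over WT (log scale), in goblet-like, enterocyte-like and enteroendocrine-like cells, with 95% counting intervals. Red points are at least 2-fold higher, dashed lines mark 0.5 and 2, genes under 50 UMIs are left out, and the triangle for Ido1 in enteroendocrine-like cells is a lower bound; red points number 8, 11 and 3.

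The 8 genes higher in goblet-like cells were Ido1, H2-T3, H2-Q1, Ifit1, Isg15, Ddx60, Gbp2 and Ifitm3. Ido1, with the levels given above, had the highest ratio of the 8, 20.8 (17.8 to 24.3). Without the clusters held mostly by 1 library, described next, the ratio of Ido1 was 0.749. Those clusters include the one led by Ido1 itself, and 155 and 708 goblet-like cells remained, so this value does not bear on the whole class. A UMI of Ido1 was held by 29 WT cells of 836, against 556 NFKO-labelled cells of 1526. Isg15, a ubiquitin-like protein that is attached to other proteins in interferon-treated cells, went from 44.8 to 142 CPM, a ratio of 3.17 (2.95 to 3.42). Ddx60 went from 42.4 to 133 CPM, 3.13 (2.90 to 3.38), and Ifit1, which binds foreign RNA at its 5′ end, from 8.28 to 33.4 CPM, 4.04 (3.41 to 4.81). Gbp2, a guanylate-binding GTPase, had 4.03 and 12.6 CPM, a ratio of 3.13 (2.44 to 4.05) that was 0.224 without those clusters, and Ifitm3 had 31.1 and 62.4 CPM, a ratio of 2.005 (1.83 to 2.20). H2-T3 and H2-Q1 rested on 21 and 4 UMIs in WT, and their ratios of 8.505 (5.46 to 13.95) and 7.99 (2.94 to 30.4) are of low levels. H2-K1, H2-D1 and B2m had ratios of 1.25, 1.40 and 1.33, and Psmb8, Psmb9 and Psmb10 of 1.09, 0.938 and 0.917.

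Goblet-like cells were not the same mixture of states in the 2 libraries. In the clustering without integration, a cluster led by Edn2, Areg, Hspa1a and Lrg1 held 601 and 21 cells, and a cluster led by Ido1, Ly6m, Zg16 and Clca1 held 80 and 797. After integration by reciprocal PCA, which aligns the libraries, 3 goblet-like states had cells of both. The state led by Sval1, Rep15 and Agr2 held 558 and 559 cells. The state led by Ido1, Ly6m, Zg16 and Clca1, with abundant mucus granule genes, held 126 and 766 cells, which was 13.7% and 43.4% of the goblet-like cells of that clustering. The state led by Hsd11b2 held 235 and 441 cells, and its 10 leading genes included Spdef, a factor of goblet differentiation, and the Notch ligand Dll1. Median UMIs per cell were 26395.5 and 29911 in the Sval1/Rep15 state, 5245.5 and 7058 in the Zg16/Clca1 state and 23213 and 26673 in the Spdef/Dll1 state. Class levels sum UMIs, so a state weighs in them by its UMIs, and its share of cells is not its weight. The comparisons within these states were chosen after the data had been seen. Mptx1, a gene of the distal marker list, had 56.7 CPM in WT goblet-like cells and 3077 CPM in those labelled NFKO. The 9 stress markers summed to 5330.0 and 2786 CPM, and among them the heat shock gene Hspa1a had 462 and 24.3 CPM. Goblet markers took 259070 and 438901 CPM of the Zg16/Clca1 state. The part of these values in the ratios was not tested.

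The levels of Ddx60, Irf7 and Ifi27l2b were ordered alike over the states in both libraries. In WT, Ddx60 stood at 184 CPM in the Zg16/Clca1 state, 40.9 CPM in the Sval1/Rep15 state and 10.3 CPM in the Spdef/Dll1 state, and in the library labelled NFKO at 339, 61.9 and 12.4 CPM. Irf7 had 258, 61.7 and 36.0 CPM in WT in the same order and 234, 90.7 and 38.2 CPM in the other library. Ifi27l2b ran from 2359 through 1069 to 287 CPM in WT, against 2771 through 1579 to 414 CPM where labelled NFKO. Ifitm3 ran the other way, with 7.57, 22.5 and 93.3 CPM in WT against 6.59, 81.0 and 154 CPM where labelled NFKO. Cd74 also did, with 27.4, 90.1 and 262 CPM and 12.5, 123 and 216 CPM.

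Within a state fewer members passed the 2-fold threshold. A smaller share of all genes also passed it upward in the Sval1/Rep15 and Spdef/Dll1 states than in the whole class. In the Zg16/Clca1 state 1 of 33 members was higher, beside 4.00% of 7702 genes, namely Ido1, from 140.1 CPM (118 to 165) to 650.0 CPM (633 to 667), a ratio of 4.64 (3.94 to 5.50). There, 2 members were lower, Oas1a and Cd74, beside 8.58%, and the median over all genes lay at -0.20 on the log2 scale. Isg15 had 150.5 and 245 CPM in this state and Ifit1 47.3 and 74.2 CPM. In the Sval1/Rep15 state 5 of 36 were higher, beside 1.91%, and 0 lower, beside 1.58%. They were H2-T3 (0.916 and 9.74 CPM), Ifitm3 (22.5 and 81.0), Ifit1 (7.33 and 22.1), Isg15 (44.96 and 122) and H2-Aa (6.91 and 17.6). In the Spdef/Dll1 state 2 of 32 were higher, H2-T3 and Isg15, beside 1.53%, and 0 lower, beside 1.15%.

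**Figure D4:**
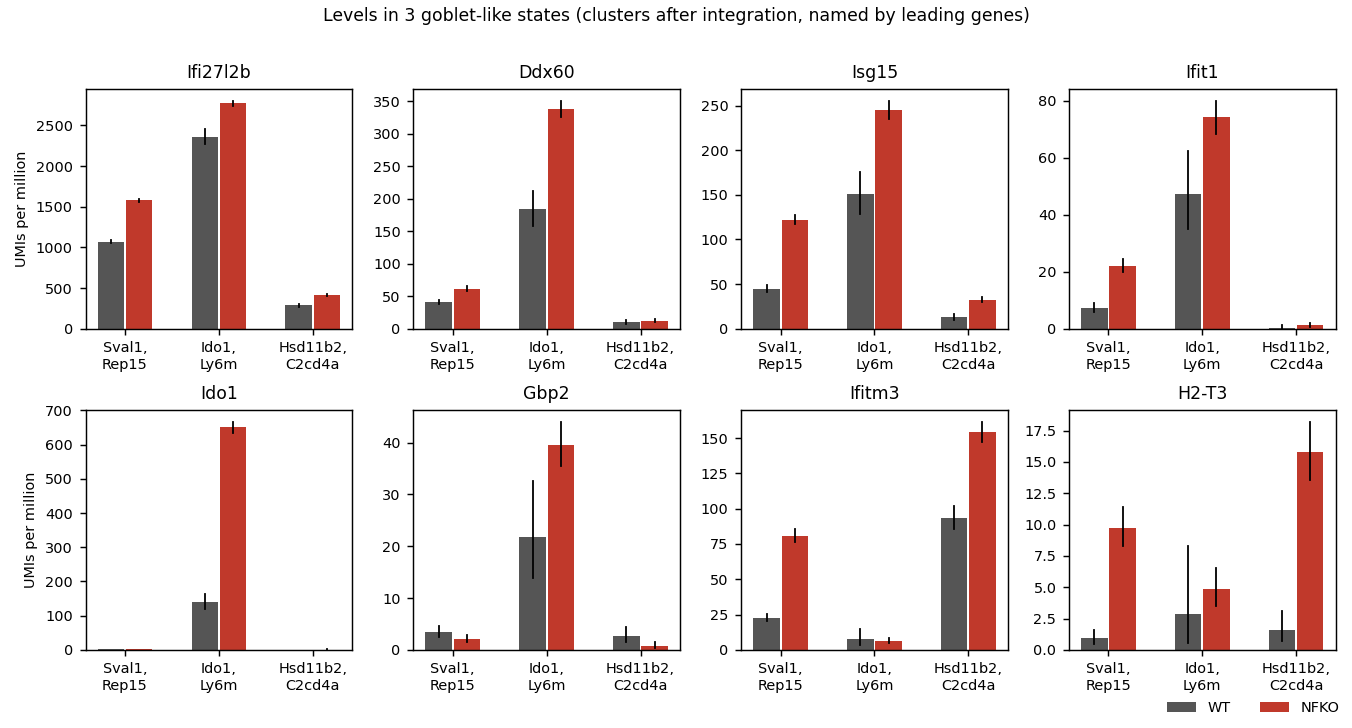
Levels of 8 genes in UMIs per 1000000 (linear scale, each panel its own) in 3 goblet-like states after integration, WT in grey and the library labelled NFKO in red, with 95% counting intervals. Ddx60, Isg15, Ifit1, Ido1 and Gbp2 are highest in the state led by Ido1 and Ly6m in both libraries, Ifitm3 is highest in the state led by Hsd11b2 in both, and H2-T3 is highest there in the library labelled NFKO.

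The weight of the states was set equal by giving the NFKO levels of each state the share of UMIs that the state had in WT. Over the goblet-like cells of the integrated clustering, which are not the same set as in the class above, the ratio of Ido1 then went from 19.0 to 4.28, that of Ddx60 from 2.81 to 1.57 and that of Gbp2 from 2.54 to 0.875. Isg15 went from 2.94 to 2.50, Ifit1 from 3.72 to 2.56, H2-T3 from 8.73 to 9.23, and Ifitm3 from 2.13 to 2.38. By this measure 6 of 38 members (Isg15, Ifit1, Ifitm3, Ido1, H2-T3 and H2-Q1) were at or over 2-fold, beside 2.58% of 11233 genes, and 1, Nlrc5, was at or under 0.5, beside 1.91%.

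In enterocyte-like cells the 11 genes over 2-fold were antiviral genes and MHC genes. Ddx60 was at 25.4 and 75.3 CPM, a ratio of 2.97 (2.51 to 3.52), Isg15 at 48.4 and 128 CPM, 2.65 (2.34 to 2.998), and Ifit1 at 17.7 and 61.5 CPM, 3.48 (2.86 to 4.27). For Ifit1, 3 WT cells held 51.6% of its UMIs. H2-Q1 was at 23.3 and 117 CPM, 5.01 (4.25 to 5.94), H2-Q2 at 133 and 319 CPM, 2.39 (2.22 to 2.58), and H2-T3 at 98.2 and 207 CPM, 2.10 (1.93 to 2.30). Of the class II genes, H2-Aa was at 9.26 and 55.1 CPM, 5.95 (4.59 to 7.83), and H2-Eb1 at 19.1 and 54.0 CPM, 2.83 (2.33 to 3.46), while Cd74 had a ratio of 1.13. The 3 remaining genes, Ido1, Rsad2 and Ifitm3, had at most 27.0 CPM. The ratio of Rsad2, 2.59, was 0.491 in male-typed cells (0.0564 to 1.97, on 25 and 2 UMIs).

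Here too the states differed in share. Cells led by Apoa4, Apoa1, Mme and Lct, genes of absorptive villus cells, made up 48.9% of WT enterocyte-like cells after integration and 67.0% of those labelled NFKO, and cells led by Apol10a, Car4 and Ms4a18 made up the rest. Their median UMIs per cell were 4120 and 5261.5 in the Apoa4 state and 38564.5 and 33954 in the other. Class levels sum UMIs, so a state weighs in them by its UMIs, and these shares of cells are not its weight. The ileal bile acid protein Fabp6 had 4276 and 3569 CPM in the whole class, and stress markers summed to 2292 and 1248 CPM. The 10 enterocyte markers summed to 3840 and 25746 CPM in the class, and the 9 goblet markers to 27387 and 14876 CPM. Within the Apoa4 state the distal list summed to 14858 and 6821 CPM and the goblet list to 3455 and 14876 CPM. The part of these values in the ratios was not tested. In the Apoa4 state 11 of 33 members were higher, beside 9.49% of 6446 genes, and 1 lower, Irf1, beside 4.95%. In this state Isg15 had 116 and 237 CPM, H2-Q1 76.7 and 238 CPM, H2-D1 627 and 1411 CPM, and Irf1 191 and 94.9 CPM. In the Apol10a state 3 of 32 were higher, H2-Aa, Ifitm3 and H2-Eb1, beside 1.89%, and 0 lower, beside 2.02%. Isg15 there was 40.2 and 45.1 CPM and Ddx60 20.002 and 17.6 CPM. With the states weighted as in WT, 5 of 37 members were at or over 2-fold (Ido1, H2-Aa, Ifitm3, H2-Eb1 and H2-Q1), beside 2.88% of 9429 genes, and 0 at or under 0.5, beside 2.11%, and the ratio of Ddx60 was 1.32 and that of Isg15 1.39.

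In enteroendocrine-like cells the 3 genes over 2-fold were of low level. H2-T3 had 0.708 and 3.26 CPM and H2-Q1 0.354 and 1.79 CPM. Ido1 had 0 and 125 UMIs, which was at least 16.9-fold higher against a floor of 3 UMIs. None of the 3 genes reached 200 UMIs. The Ido1 UMIs lay in 104 of 1863 cells labelled NFKO. Zg16 had 124 and 729 CPM in this class, and its part in the Ido1 ratio was not tested. Rsad2 was at 0.591 of its WT level (0.522 to 0.670), Irf1 at 0.722 and Isg15 at 1.63 (1.21 to 2.21).

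Tuft-like cells held few UMIs, 662905 in WT. In them 6 of 29 members were higher, beside 5.33% of 6450 genes, and 1 lower, Oas2, beside 3.35%. Oas2 had a ratio of 0.343 (0.244 to 0.484). Cd74 had 10.6 and 70.5 CPM, a ratio of 6.68 (3.17 to 16.9), H2-Eb1 2 and 60 UMIs, a ratio of 8.82 (2.34 to 74.5), and Ifitm3 39.2 and 114 CPM, a ratio of 2.92 (1.95 to 4.55). For Cd74, 3 of 140 cells held 76.7% of the UMIs labelled NFKO. In the same class the 6 B cell and plasma cell markers had 3 and 39 UMIs (4.53 and 17.3 CPM), with 5 of the 6 at 0 in each library, the 10 myeloid markers had 0 and 4 UMIs, and Zg16 had 113 and 1748 CPM. Their part in these ratios was not tested. The other higher genes were Irf8, H2-Ab1 and Ifit1, with 5, 10 and 8 UMIs in WT.

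In Paneth-like cells 7 of 33 members were higher, beside 4.52% of 9580 genes, and 2 lower, beside 0.971%. The median over all genes was 0.30 on the log2 scale there, so most genes stood higher in CPM in the library labelled NFKO, and with median-of-ratios size factors 5 members were higher and 3 lower. The member median was 0.20. Ifi27l2b had 51.6 and 127 CPM, a ratio of 2.46 (2.28 to 2.65), and Isg15 2.11 and 7.06 CPM, a ratio of 3.35 (2.34 to 4.85). H2-T3, Ido1, Ddx60, Tap2 and Oasl2 were the other genes higher, all at or under 6.62 CPM. Rsad2, with 65 and 13 UMIs, and Igtp, a GTPase of the IRG family with 51 and 19 UMIs, were the genes lower.

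In stem-like cells Isg15 had 7.13 and 40.9 CPM, a ratio of 5.73 (4.61 to 7.17). There, 6 of 186 cells held 50% of its UMIs labelled NFKO or more. Ifit1 (28 and 63 UMIs), Ddx60 (68 and 117) and H2-T3 (411 and 559) also passed 2-fold, with 14861947 and 9617112 UMIs in the class. In cycling-like cells Isg15 (25 and 221 of 1970534 and 6602176 UMIs) passed it, as did H2-T3 (none in WT and 122). In neither class were the called members counted beside all genes. Class II genes were lower in stem-like cells without passing 2-fold. Their ratios were 0.620 for Cd74 (0.599 to 0.641), 0.635 for H2-Ab1, 0.650 for H2-Eb1 and 0.761 for H2-Aa. In this class goblet markers summed to 19228 and 32337 CPM, enteroendocrine markers to 1554 and 456 CPM, stem markers to 2323 and 1830 CPM and stress markers to 3517 and 2042 CPM, and their part in the ratios was not tested. Ciita was at 0.394 of WT (0.268 to 0.566), with 149 and 38 UMIs. In Paneth-like cells the 4 class II genes summed to 182 and 105 CPM, a ratio of 0.577 (0.545 to 0.612).

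Sex could be held constant only on few cells. Cells with a UMI of a Y-linked gene and none of Xist numbered 696 in WT goblet-like cells and 104 in those labelled NFKO, beside 1332 female-typed cells in the latter. Ido1 had 7.57 CPM in male-typed WT cells, 243 CPM in male-typed and 174 CPM in female-typed cells labelled NFKO. Isg15 had 44.8, 78.7 and 147 CPM in the same order, Ifit1 7.996, 13.1 and 34.9 CPM, and Ifitm3 31.2, 14.9 and 68.1 CPM. H2-D1 had 643, 1520.2 and 837 CPM, H2-K1 564, 317 and 743 CPM, and H2-Ab1 91.3, 27.6 and 97.1 CPM. Among enterocyte-like cells (176, 27 and 257 cells) Isg15 had 47.0, 40.7 and 131 CPM, Ifit1 17.4, 17.97 and 63.95 CPM, H2-Q1 20.8, 131 and 109 CPM, and H2-Aa 7.24, 92.7 and 45.5 CPM. Ido1, H2-Q1 and H2-Aa stood above WT in both typed sets of the library labelled NFKO, whereas Isg15 in enterocyte-like cells did so in its female-typed cells only. Ido1 in male-typed enterocyte-like cells rested on 2 and 2 UMIs, a ratio of 6.14 (0.445 to 84.7). H2-Q1 in male-typed goblet-like cells rested on 4 and 6 UMIs. The typed sets come from different mice of 1 pool, and sex, animal and label cannot be told apart.

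**Figure D5:**
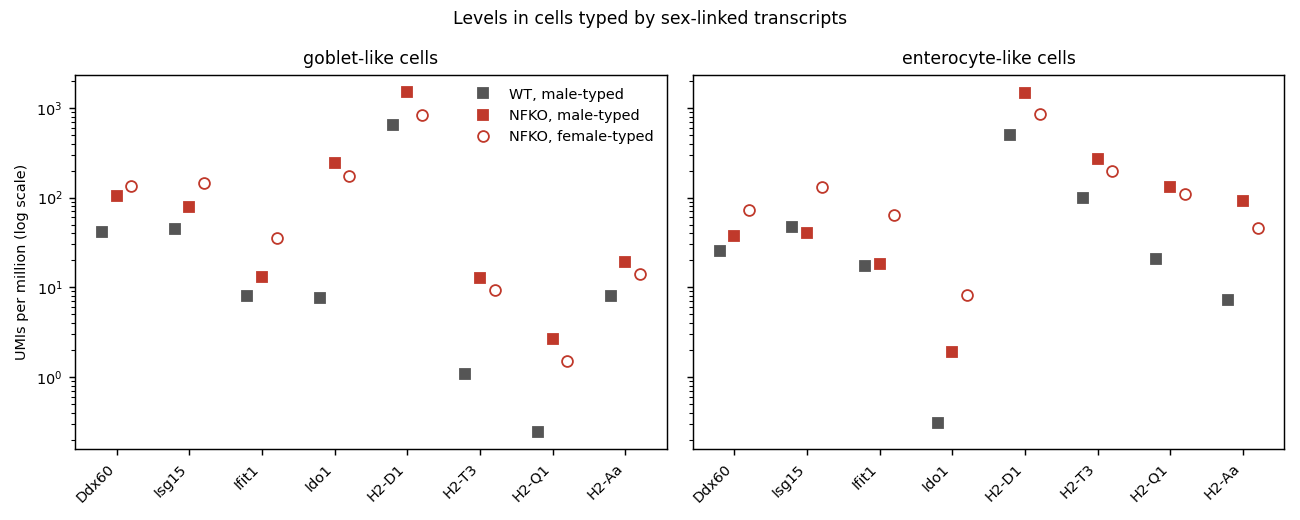
Levels of 8 genes in UMIs per 1000000 (log scale) in goblet-like and enterocyte-like cells typed as male (squares) or female (circles) by sex-linked transcripts, WT in grey and the library labelled NFKO in red. Ddx60, Ido1, H2-D1, H2-T3, H2-Q1 and H2-Aa lie above WT in both typed sets of each class. So does Ifit1, though barely in male-typed enterocyte-like cells. Isg15 in enterocyte-like cells lies above WT only in the female-typed set.

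The wider pathway was read from a list of 110 other genes, of which 105 were in the gene list. Etv7, Mb21d1, Mx1, Mx2 and Oas1b had no matching symbol. Interferon genes themselves were absent or nearly so from the named epithelial classes. Ifnb1, Ifng, Ifnl2, Ifnl3 and Ifne had 0 UMIs there in either library and Ifnk 1 and 5 UMIs, while the WT lymphocyte cluster had 137 CPM of Ifng from 9 UMIs. The receptor chains were present, with 62.4 and 81.4 CPM of Ifngr1 and 12.7 and 10.1 CPM of Ifnar1 in goblet-like cells. In goblet-like cells 17 of 86 pathway genes that passed the minimum were at least 2-fold higher and 1 was lower, beside 4.01% and 1.88% of all genes. In enterocyte-like cells it was 9 and 1 of 75, beside 4.94% and 1.79%, and in enteroendocrine-like cells 1 and 4 of 81, beside 2.70% and 2.03%. The largest ratios in goblet-like cells were those of Gbp8 (6.03, with 8 UMIs in WT), Gbp4 (5.64, with 5), Aim2 (4.89), Ifit1bl1 (4.03) and Herc6 (3.09), and the gene lower was Tmem173, which encodes STING (0.356). Aim2, the sensor of cytosolic DNA that starts an inflammasome, was also the pathway gene higher in enteroendocrine-like cells, from 2.83 to 32.4 CPM, a ratio of 11.4 (8.04 to 16.8). The 4 lower there were Ifit1bl1 (0.365), Ifit3b (0.389), H2-Q10 (0.453) and Irf5 (0.470).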

How the data were processed

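Tomato-positive small-intestinal cells of 1 WT and 1 NFKO library had been sequenced with the 10x Genomics 3′ kit. The authors deposited raw UMI counts per gene and barcode. The submitters' processing notes name Cell Ranger 5.0.1 and the build mm10. Annotation and barcode filters are not given in the sources used here.

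Of 5051 and 7540 barcodes, cells had to have 500 genes, 1000 UMIs and no more than 25% of UMIs from mitochondrial genes. Scrublet in scanpy 1.11.5 marked 3 and 0 doublets by its own threshold, so the highest scores, at 0.8% per 1000 barcodes, were removed (126 and 340 cells). Cells were clustered in Seurat 5.3.0 (2000 variable genes, 30 components, resolution 0.8), and clusters were named from at least 3 markers at least 2-fold higher and present in 10% of cells. A cluster that passed for cycling and for another class took the name of the other. A cluster with under 1/3 of its library's median UMIs, and no marker of its class among its 10 leading genes, stayed unnamed. Counts were summed by class. Intervals for levels were exact Poisson, for ratios exact conditional binomial and for shares Clopper-Pearson, all at 95%. Shares used cells thinned to 2000 UMIs, which left out 32 and 335 cells. The ratio was tested on Poisson counts simulated from the WT sums of all kept cells. There, 95.1% of the intervals over 12947 genes held the true ratio. Such counts follow the model of the interval, so this checks the computation only, not the spread between cells or animals.

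Values were given to members past 2-fold in goblet-like, enteroendocrine-like, Paneth-like, enterocyte-like or tuft-like cells (at most 8 per class and direction). For some genes at low levels these are UMIs or an upper bound only. Stem-like and cycling-like cells were not covered by this rule. Values were also given to the member with the highest level in each role group and to Foxo1. The same holds for members at 5 times the median of the other classes in both libraries. Of other pathway genes, values were given to at most 5 per direction past 2-fold in goblet-like or enteroendocrine-like cells. Other genes are named after their values were seen. The members and lists were chosen with earlier results of these data known. Gene matching used Ensembl identifiers on GENCODE M21 (GRCm38). Alternatives covered scaling, cell weight, filters, doublets, clustering, naming, sex and thresholds. There are no replicates, so p-values were not computed.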

Additional observations from a re-analysis of the deposited data

Results flagged for a closer look

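Rsad2 moved in opposite directions in 2 classes. Its ratio was 0.258 in Paneth-like cells and 2.59 in enterocyte-like cells. The first rested on 65 and 13 UMIs (WT first), the second on 28 and 85, and in each class 3 cells of a library held between 38.5% and 60.7% of the UMIs. In enterocyte-like cells the ratio was 0.833 with the states weighted as in WT. In male-typed enterocyte-like cells it was 0.491 (0.0564 to 1.97), on 25 and 2 UMIs. The difference between the classes was not tested.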

How the results depend on the processing

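There is 1 library per group, so the counting intervals leave out the spread between animals, and differences of sex, pooled animals and label cannot be told apart. No paired analysis was possible because each group has 1 library. Low depth limits tuft-like cells and genes of a few UMIs. Of 174 ratios of single members, 2333 values were computed under alternatives, of which 1862 stayed within the counting interval, 458 moved outside it and 13 reversed. The 13 are ratios of members called at 2-fold, listed below, so turns of members that were not called are not in this number. The within-state and state-weighted alternatives were added after the data were seen. Counts that moved are given here as members at least 2-fold higher or lower, and except for changed thresholds the cause was not tested.

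In enteroendocrine-like cells 3 were higher, which became 0 at 200 UMIs, 6 at 1.5-fold, 5 without the 3 cells with most UMIs, 6 with no doublet removal and 6 with every deposited barcode, and 0 were lower, which became 1 with equal weight per cell, 1 with no count minimum, 3 at 1.5-fold and 8 in male-typed cells. In goblet-like cells 8 higher became 16 at 1.5-fold, 5 without library-bound clusters, and 5, 1 and 2 within the Sval1/Rep15, Zg16/Clca1 and Spdef/Dll1 states, and 0 lower became 1 at 1.5-fold, 3 in male-typed cells, 1 without library-bound clusters, 1 with states weighted as in WT and 2 within the Zg16/Clca1 state. In Paneth-like cells 7 higher became 1 at 200 UMIs, and 2 lower became 0 at 200 UMIs, 6 at 1.5-fold, 0 with another clustering seed, 1 at resolution 1.2, 7 with no doublet removal, 7 with every deposited barcode, 0 with the class taken from each cell's marker score and 4 in male-typed cells. In enterocyte-like cells 11 higher became 6 in male-typed cells, 5 with states weighted as in WT and 3 within the Apol10a state, and 0 lower became 1 with no count minimum and 1 within the Apoa4 state. In tuft-like cells 6 higher became 1 at 200 UMIs, 3 by marker score and 1 in male-typed cells, and 1 lower became 0 at 200 UMIs, 3 with no count minimum, 3 at 1.5-fold and 6 in male-typed cells. With equal weight per cell, enteroendocrine-like cells led for 0 members and tuft-like cells for 5.

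Only ratios of members called at 2-fold are listed here as turned. In male-typed cells these were Ifitm3 (0.477, 0.327 to 0.675) in goblet-like and Oasl2 (0) in Paneth-like cells. In enterocyte-like cells they were Isg15 (0.865) and Rsad2 (0.491), and in tuft-like cells Ifit1 (0), Ifitm3 (0.868), H2-Ab1 (0.260) and Cd74 (0). Apart from goblet-like Ifitm3, the intervals of these male-typed ratios all held equal levels. Each ratio of 0 stood for 0 UMIs, in 17 Paneth-like or 11 tuft-like cells labelled NFKO. Without library-bound clusters, among them the one led by Ido1, the goblet-like ratios were 0.749 for Ido1 and 0.224 for Gbp2, on 155 and 708 cells. By marker score the tuft-like ratio of Irf8 was 0.617. With states weighted as in WT the ratio was 0.875 for Gbp2 in goblet-like and 0.833 for Rsad2 in enterocyte-like cells. Ratios of members that were not called turned too. Among them were H2-K1 in goblet-like cells (0.562 in male-typed cells) and Irf7 in enterocyte-like cells (0.847 with states weighted as in WT).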
